A study of Ovis aries with 15 samples.

Results

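The cytosolic ribosomal protein genes of the ovine mammary gland were followed from late pregnancy to lactation. They were taken by symbol: a deposited feature was a member where its symbol was RPL, RPLP or RPS followed by a number and, where present, A, X or Y and an L suffix for a paralogue. The rule found 65 members among the 24691 features, 41 of the large (60S) subunit and 24 of the small (40S) subunit, and it used no expression value. The members lie on 21 chromosomes and have 3 to 11 annotated exons. The rule takes the L-suffixed paralogues, and it misses ribosomal proteins whose symbols do not follow the pattern. Of the latter, FAU is described with the pathway genes, and RPSA and RACK1 were not analysed here.

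The cytosolic ribosome reads mRNA in its small subunit and joins amino acids in its large subunit, and each subunit is a fixed assembly of ribosomal RNA with ribosomal proteins. The mRNAs of these proteins begin with a terminal oligopyrimidine (TOP) tract, which lets mTOR signalling and the RNA-binding protein LARP1 hold them back or release them for translation as a group. Ribosomal proteins are among the most abundant transcripts of growing tissue. A few have paralogues, such as RPL22L1, RPL3L and RPS27L, that differ from the parent gene in the tissues or conditions in which they are expressed.

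Mammary biopsies came from 2-year-old primiparous Romney ewes on day 135 of gestation (late pregnancy, 9 libraries) and on day 15 post partum (lactation, 6 libraries). Each library was made from a pool of RNA from several ewes, and the sources differ on how many ewes a lactation pool held. All ewes received the same feed, and differed in the feed of their own dams in early gestation, which was ad libitum (HM), maintenance (MM) or sub-maintenance (LM) and was followed by maintenance in all groups, with 3 late pregnancy and 2 lactation pools in each. Ewes biopsied in late pregnancy were biopsied again in lactation, so the states share animals, but the sources used here do not say which ewes entered which pool, and the tests treat the pools as independent. A pool averages its ewes, so p-values measure the spread between pools. The tissue was whole parenchyma, in which fewer cells of a type and less RNA per cell cannot be told apart. Each late pregnancy library held between 6471237 and 16898986 reads on exons, and each lactation library between 9014506 and 24001031. In lactation 71.3% to 75.8% of those reads fell on 7 milk protein genes, against 13.7% to 23.4% in late pregnancy. HM lactation pool 1 stood apart in its intron reads, which made up 35.6% of the reads on genes other than the members and the milk protein genes, against 18.7% to 21.7% in the other 14 libraries.

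As a share of all reads on exons, the members ranged between 8.57% and 10.2% across the late pregnancy libraries, with 9.37% as the median. Across the lactation libraries they ranged between 1.10% and 1.48%, with 1.27% as the median. The lowest late pregnancy library lay far above the highest lactation library. Against a total that omitted the milk protein genes the shares were 10.6% to 12.4% and 4.56% to 5.61%, and the states still did not overlap. Large subunit members held between 5.55% and 6.53% of reads before birth and between 0.697% and 0.937% in lactation. Small subunit members held 3.03% to 3.68% and 0.405% to 0.543%.

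**Figure D1:**
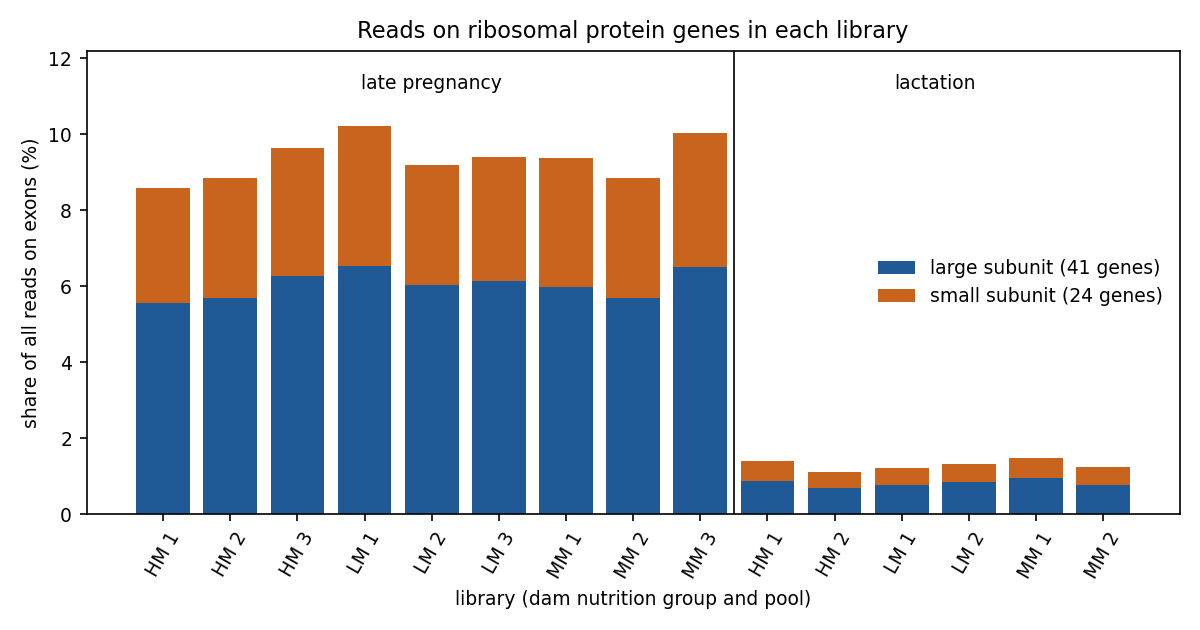
Share of all reads on exons (%, stacked bars from 0) taken by the large and small subunit members in each of the 15 libraries, grouped by state and named by dam nutrition group and pool. Totals run from 8.57% to 10.2% in late pregnancy and from 1.10% to 1.48% in lactation.

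Levels differed widely between members. On the RPKM scale, which divides reads by exon length and by the total of reads on genes, 49 of the 65 members averaged at least 1000 in late pregnancy and 6 averaged under 100. The highest was RPLP1, a protein of the stalk that recruits elongation factors, at 4679 ± 326 RPKM (SD, n = 9). Among the other members with the highest means, RPL31 averaged 4075 ± 295, RPL23 3690 ± 332 and RPS29 3362 ± 257 RPKM. RPLP1 remained the highest in lactation at 1173 ± 113 RPKM (SD, n = 6). Members under 100 RPKM in late pregnancy were RPL37A, RPL7L1, RPS25, RPL27, RPL26L1 and RPL3L, of which RPL37A, RPS25 and RPL27 are core ribosomal components. Most exon reads of RPS25 were not uniquely placed, as given with its values below. The order of the members was much the same in both states (Spearman's rho = 0.972 between mean RPKM over the 65 members, a description in which the points share libraries and exon lengths).

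For the comparison of states, reads on exons were scaled by TMM factors and tested across 13345 genes with edgeR's quasi-likelihood test, a gene being called at a Benjamini-Hochberg adjusted p under 0.05. Of the members, 64 passed the filter on low counts. RPL3L, the paralogue of RPL3 known from muscle, did not pass, with 30 exon reads over the 9 late pregnancy libraries and 7 over the 6 lactation libraries. In lactation 61 of the 64 were lower, against 35.2% of all tested genes, and 1 was higher, against 33.1%. The median log2 change of the members was -0.94 and that of all tested genes -0.03. For 58 members every lactation library lay below every late pregnancy library on the CPM scale (counts scaled to a common library size with the TMM factors), a pattern seen in 20.0% of all tested genes. The members' median level in late pregnancy was 805 CPM, against 10.9 for all tested genes. Calls and separation of the states are easier to reach at higher counts. In log2 change 46 members lay within 0.25 of the members' median. A fall of more than 2-fold was called in 23 members, against 1736 of the 13345 tested genes. The members' median lies near that threshold, and the count was 44 under upper-quartile scaling and 64 by library size alone.

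The members were lower under every scaling tried, with 63 called lower by upper-quartile scaling, 61 by DESeq2 and 61 by limma. Of all 13345 tested genes, 5990, 4623 and 5073 were called lower in the same fits. The direction of RPS27L and of the comparison sets depended on the scaling. Scaling by library size alone moved the median of all genes to -1.94 and made all 64 members lower, with a median of -2.84. It also made 12705 of the 13345 tested genes lower, so a call under it says little about a set. The members' median less that of all genes was -0.90 under that scaling and also under TMM. Mitochondrial ribosomal protein genes, which serve the separate ribosome of the mitochondrion, are a set of related function but lower level, with a median of 18.4 CPM in late pregnancy. Of these 15 of 75 fell and 24 rose under TMM, their median change being 0.03, while all 75 were lower by library size alone and 31 were lower and 11 higher by limma on quantile-normalized RPKM. Initiation and elongation factors (EIF and EEF symbols, without their kinases and binding proteins) gave 15 lower and 22 higher of 46 under TMM, with a median of 0.12, while all 46 were lower by library size alone and 22 were lower and 16 higher by limma.

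**Figure D2:**
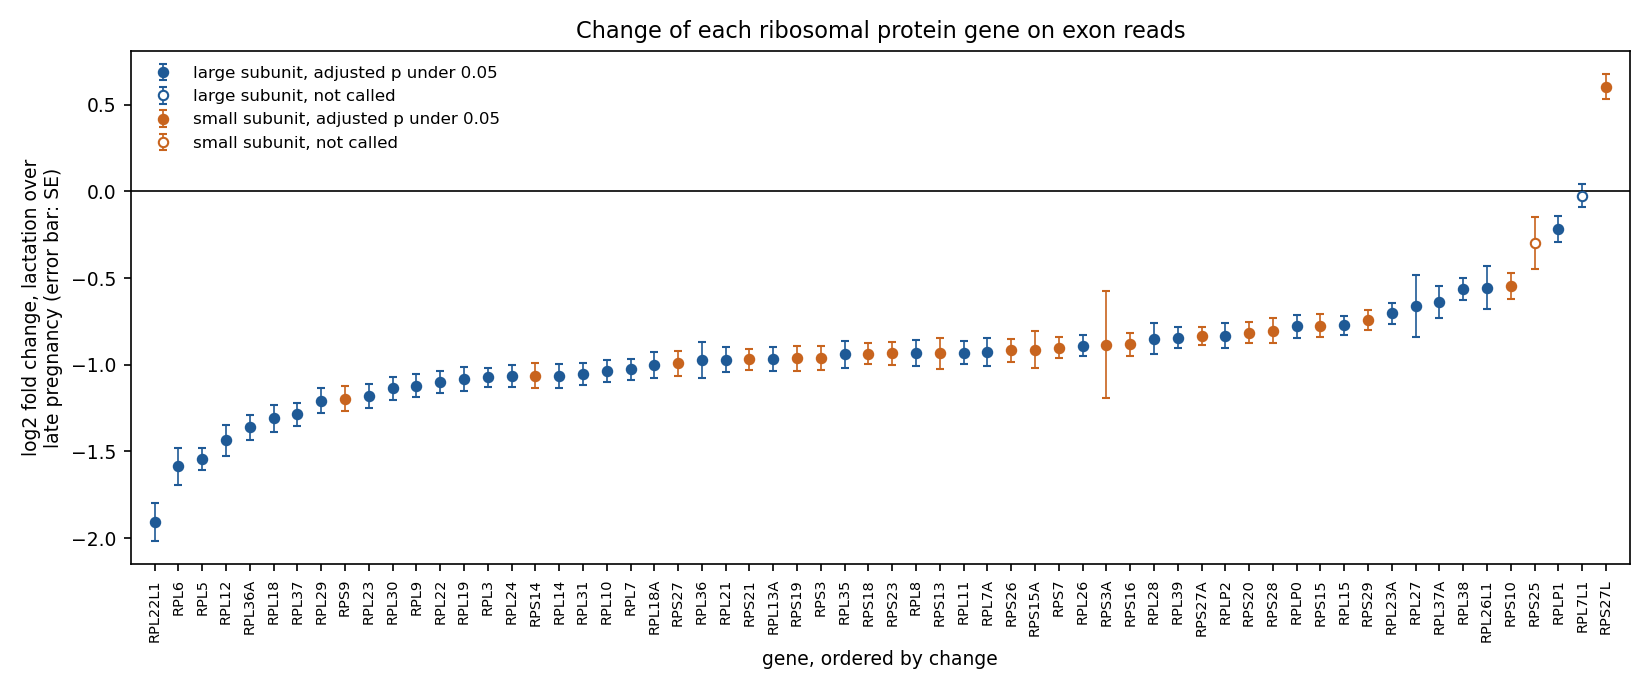
The log2 fold change (lactation over late pregnancy, TMM-scaled exon reads) of the tested members whose names are given here, in order, with its standard error, coloured by subunit, with open points for members that were not called. RPL22L1 lies lowest at -1.91, most members crowd near the median of -0.94, and RPS27L, at 0.60, is the sole member above 0, which turns to -1.30 when libraries are scaled by size alone.

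The stalk proteins fell unequally. RPLP0, the base of the stalk, had 2023, 2289 and 2565 CPM as its lowest, median and highest late pregnancy values and 1194, 1326 and 1435 in lactation. The states did not overlap, and the log2 change was -0.78 ± 0.07 (SE, edgeR adjusted p = 2.29e-09). RPLP2 went from 280, 330 and 369 CPM to 161, 186 and 203, again without overlap, a log2 change of -0.83 ± 0.07 (edgeR adjusted p = 2.63e-09). RPLP1, the partner of RPLP2 in the stalk dimers, had 1558, 1775 and 2103 CPM in late pregnancy and 1393, 1557 and 1650 in lactation. Here the states overlapped, and the log2 change of -0.22 ± 0.07 passed the test (edgeR adjusted p = 0.0145) in the comparison over all libraries but not within the libraries whose headers name sequencing lane 7, where it was -0.20, or lane 8, where it was -0.22, nor over all libraries with the replicate number as a block, where it was -0.20 (edgeR adjusted p = 0.0954). The ratio of RPLP1 to RPLP2 RPKM was 4.16 to 4.81 in the late pregnancy libraries and 6.07 to 7.505 in the lactation libraries. The ratio of RPLP2 to RPLP0 overlapped between the states, at 0.334 to 0.376 and 0.302 to 0.361. The start of RPLP1 (chr7:16134511-16136861, coordinates as deposited, on a build that the processing notes call Oar 3.1) overlaps the end of KIF23, whose exon reads came to 2104 over all libraries.

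The members with the largest falls were all of the large subunit. RPL22L1 (chr1:214636304-214640676), the paralogue of RPL22, had 131, 138 and 194 CPM as lowest, median and highest in late pregnancy and 32.1, 36.5 and 53.5 in lactation, a 3.75-fold fall (log2 change -1.91 ± 0.11, edgeR adjusted p = 6.3e-12). RPL5 (chr1:69226812-69234964), which with RPL11 carries 5S rRNA into the large subunit, fell 2.91-fold from 1596, 1795 and 1943 CPM to 533, 622 and 667 (log2 change -1.54 ± 0.06, edgeR adjusted p = 4.51e-14). Its partner RPL11, named here for that role after its values were seen, had a log2 change of -0.93 ± 0.07. RPL6 (chr17:61489185-61494202) fell 3.00-fold, from 759, 961 and 1150 CPM to 228, 332 and 405 (log2 change -1.58 ± 0.11). RPL12, which binds beside the stalk base, went from 80.0, 88.1 and 112 CPM to 27.6, 34.1 and 40.0 (log2 change -1.44 ± 0.09). RPL36A went from 325, 379 and 456 CPM to 132, 151 and 167 (log2 change -1.36 ± 0.07). In each of these genes no lactation library reached the lowest late pregnancy library, although the values of RPL6 and RPL12 depended on shared reads, as described with the unique reads. Among the small subunit the largest fall was RPS9, at -1.20 ± 0.07 on the log2 scale, a gene named here after its values were seen.

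At the upper end of the signed order lay RPS27L, the sole rise, and then RPL7L1, RPLP1, RPS25 and RPS10. RPS10, a protein of the small subunit's head, fell from 677, 781 and 954 CPM to 508, 548 and 599 (log2 change -0.55 ± 0.07, edgeR adjusted p = 1.66e-06), and had a value of 0.03 with no call by limma on quantile-normalized RPKM. RPS25, known for its part in internal initiation on viral mRNAs, was measured at only 8.54, 9.80 and 12.9 CPM in late pregnancy and 4.57, 7.98 and 12.5 in lactation. Its states overlapped and its log2 change of -0.30 ± 0.15 was not called (edgeR adjusted p = 0.0835). It was called lower with a value of -0.46 when LM lactation pool 1, its highest lactation library, was left out, with a value of -0.58 on reads that cross exon junctions, and with a value of -0.41 under the replicate block (edgeR adjusted p = 0.0315). RPS27A, which is made as a fusion with ubiquitin, fell from 1215, 1335 and 1473 CPM to 714, 753 and 798 (log2 change -0.83 ± 0.05, edgeR adjusted p = 3.79e-11).

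RPS3A, a small subunit protein named here after its values were seen, varied far more between pools than its neighbours. Its late pregnancy values ran from 302 CPM in LM pool 2 to 1603 in LM pool 1, with a median of 734, and its lactation values from 251 in LM pool 2 to 688 in MM pool 1, with a median of 440. Its coefficient of variation was 50.2% in late pregnancy and 41.1% in lactation, while 61 of the 65 members were under 15% in late pregnancy. The states overlapped, and the log2 change of -0.88 ± 0.31 had an edgeR adjusted p of 0.0164. That level was not reached within the libraries whose headers name lane 8 (edgeR adjusted p = 0.0742) or by limma (adjusted p = 0.0683). Intron reads of the same gene were steadier, at 30.8 to 49.1 intron CPM in late pregnancy and 26.4 to 42.5 in lactation, and 52.2% of its exon reads in late pregnancy were uniquely placed.

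**Figure D3:**
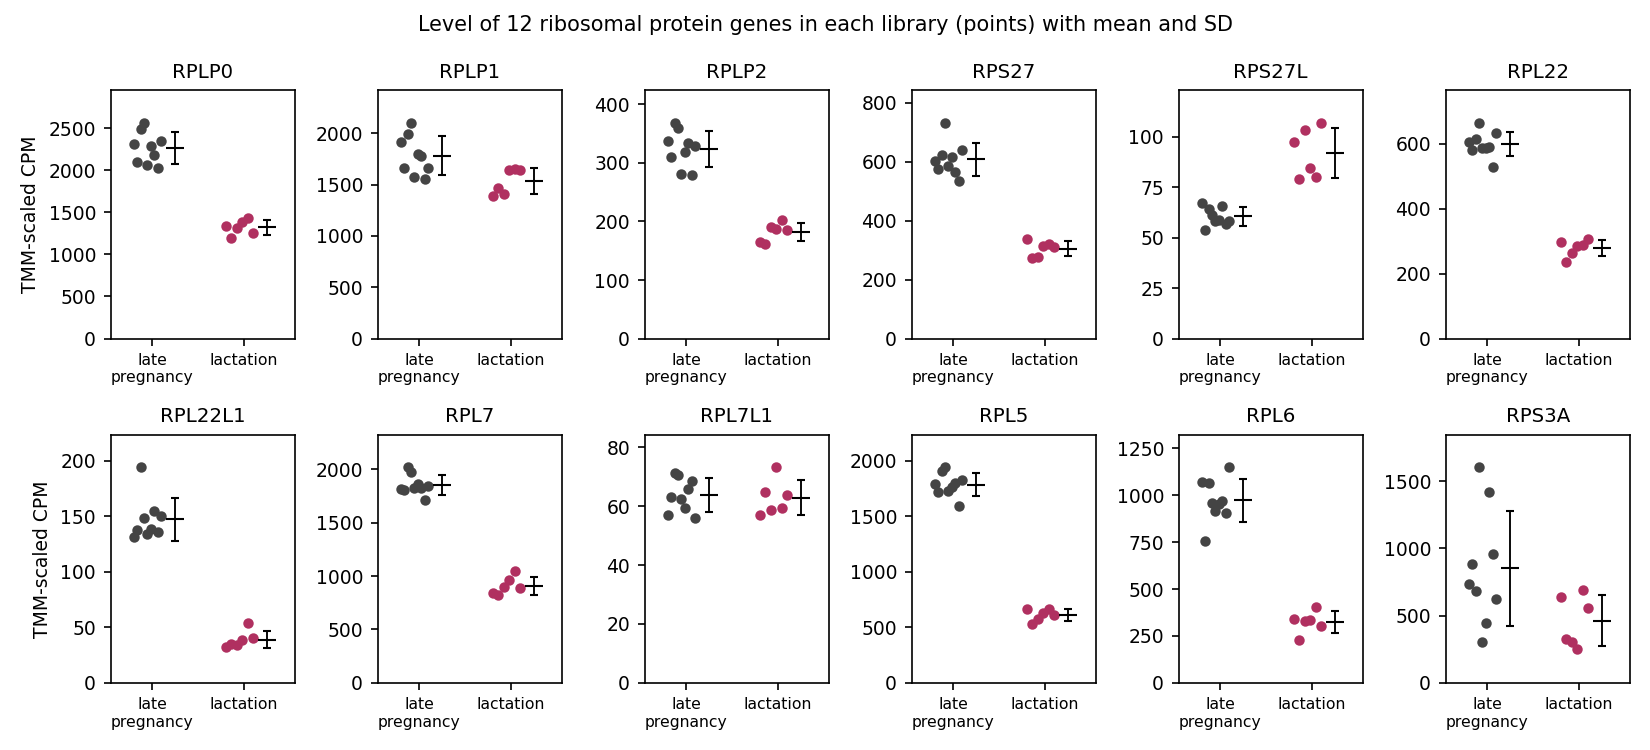
TMM-scaled CPM (axes from 0) of 12 members in each library, as points, with the mean and SD beside them, for 9 late pregnancy and 6 lactation libraries. RPS27L is higher in lactation in every library, RPL7L1 and RPLP1 overlap between the states, and RPS3A spreads from 302 to 1603 in late pregnancy.

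Paralogue pairs were present in the files for RPL3, RPL7, RPL22, RPL26 and RPS27. In 3 of the 4 pairs with both genes tested, the estimated log2 change of the paralogue lay above that of its parent. The genes of a pair were not tested against each other. RPS27L (chr7:43919426-43922884), known as a p53-inducible gene, was the sole member called higher: it had 53.7, 58.9 and 67.3 CPM in late pregnancy and 78.9, 91.0 and 107 in lactation, with no overlap and a log2 change of 0.60 ± 0.07 (edgeR adjusted p = 3.22e-07), which turned to -1.30 when libraries were scaled by size alone. RPS27 itself fell from 534, 601 and 731 CPM to 273, 311 and 338 (log2 change -0.99 ± 0.07, edgeR adjusted p = 1.55e-10). The ratio of RPS27L to RPS27 RPKM, which the scaling of libraries does not touch, was 0.235 to 0.326 in late pregnancy and 0.697 to 1.05 in lactation.

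In the RPL22 pair the paralogue fell further. RPL22 fell from 528, 591 and 664 CPM to 237, 286 and 305 (log2 change -1.10 ± 0.06), less than its paralogue, and the ratio of RPL22L1 to RPL22 RPKM was 0.366 to 0.536 in late pregnancy and 0.184 to 0.316 in lactation. RPL7L1, which works in the assembly of the large subunit and is not a stable part of it, had 55.9, 63.0 and 71.4 CPM in late pregnancy and 56.9, 61.6 and 73.3 in lactation, with a log2 change of -0.02 ± 0.07 (edgeR adjusted p = 0.764). It was called lower at -0.20 by limma and at -0.17 under upper-quartile scaling. RPL7 went from 1710, 1823 and 2020 CPM to 821, 891 and 1050 (log2 change -1.03 ± 0.06). RPL26L1 was a minor gene beside RPL26, with RPKM ratios of 0.005 to 0.009 in late pregnancy and 0.008 to 0.010 in lactation. These ratios overlapped between the states. The log2 change of RPL26L1 was -0.56 ± 0.13 (edgeR adjusted p = 6.14e-04) against -0.89 ± 0.06 for RPL26. It rests on 18 to 42 exon reads of RPL26L1 in each lactation library, and the span of that gene overlaps ERGIC1. RPL3, the partner of the scarcely read RPL3L, had a log2 change of -1.07 ± 0.06.

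A second fit asked which members changed against the group. It used the summed reads of the tested members as the library size, so a change of 0 means that a gene kept its share of the members' reads. By this measure 16 members were lower, against 7.57% of all tested genes, and 17 were higher, against 75.8% of all tested genes, a background shifted upward because the members themselves fell. Of the 16 lower members 14 were of the large subunit and 2, RPS9 among them, of the small one. The 17 higher members were 9 large and 8 small. The furthest below the group were RPL22L1 (log2 change -0.96 ± 0.09), RPL6 (-0.64 ± 0.09), RPL5 (-0.59 ± 0.05), RPL12 (-0.48 ± 0.07) and RPL36A (-0.40 ± 0.06). The furthest above were RPS27L (1.56 ± 0.08), RPL7L1 (0.93 ± 0.08), RPLP1 (0.74 ± 0.06), RPS25 (0.65 ± 0.17) and RPS10 (0.41 ± 0.05). The value of RPS25 rests mostly on reads that were not uniquely placed. RPLP0 and RPLP2 lay above the group by 0.18 and 0.13, and the call of RPLP2 was lost on unique reads (edgeR adjusted p = 0.152). With the replicate number as a block, 12 members were lower and 11 higher.

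Subunit totals moved slightly. In reads, the large subunit members held 1.77 to 1.90 times the reads of the small ones in late pregnancy and 1.67 to 1.77 times in lactation, so the states touched. On unique reads the ratios were 1.46 to 1.53 and 1.42 to 1.49. The mean log2 RPKM of tested large subunit members lay below that of small subunit members by 0.19 to 0.32 in the late pregnancy libraries and by 0.36 to 0.50 in the lactation libraries, which did not overlap. This mean weights every gene alike and includes the paralogues, so RPS27L, RPL22L1, RPL6 and RPL12 weigh on it. It was not repeated on unique reads or without the paralogues. In the fit across all genes the median log2 change was -0.99 for the 40 large subunit members and -0.91 for the 24 small ones.

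Reads that fit several places in the genome matter for this family, because ribosomal protein genes have many processed pseudogenes. Members had 78.0% to 79.1% of their exon reads uniquely placed in late pregnancy and 80.5% to 81.1% in lactation, against 90.5% to 91.7% and 97.8% to 98.2% for all genes. The shares ran from near 0 to complete: 28 members had at least 99% unique reads in late pregnancy, and 13 had under 50%. The lowest in late pregnancy were RPL23A (1.34%), RPL30 (1.80%), RPL37 (2.09%), RPL23 (7.53%) and RPS15A (9.13%). On unique reads alone 61 members were again lower and 1 higher, and the median log2 change of the members was -0.93. The 35 members with at least 90% unique reads in every library had a median of -0.94.

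Single members did depend on shared reads. RPL6 fell by 1.58 on the log2 scale with all reads and by 1.07 with unique reads. Its unique share was 18.8% to 32.1% in late pregnancy libraries and 27.5% to 39.3% in lactation libraries. RPL12 fell by 1.44 with all reads and 0.66 with unique reads, and its unique share went from 8.9% to 14.3% in late pregnancy to 15.2% to 23.3% in lactation, without overlap. RPL22L1 fell by 1.91 and by 1.54, with unique shares of 39.3% to 45.3% and 51.1% to 58.1%. Relative to the group, RPL12 turned from -0.48 to 0.24 and RPL30 from -0.18 to 0.26 on unique reads, neither of them then called. RPL6 and RPL37 lost their calls at -0.16 and -0.06, and RPL23A went from 0.25 to 0.59 with its call kept. RPL5, at -0.59 and -0.56, and RPL36A, at -0.40 and -0.44, kept theirs on either set of reads.

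**Figure D4:**
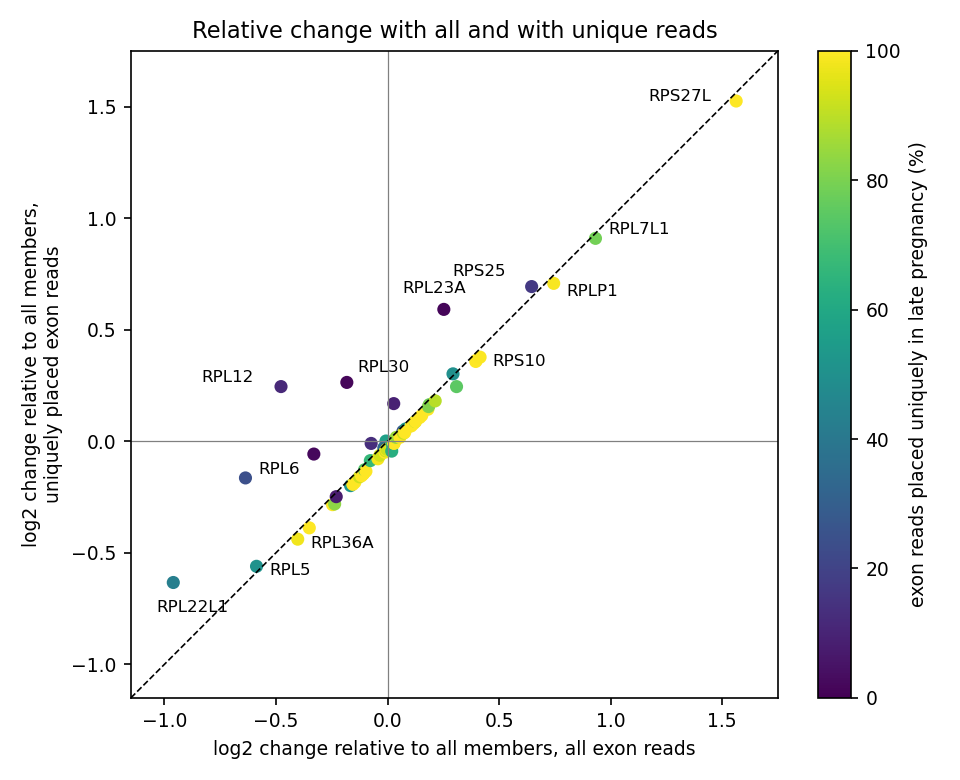
The log2 change relative to the summed members with all exon reads (x axis) and with uniquely placed exon reads (y axis) for 64 members, coloured by the share of exon reads that were unique in late pregnancy (%), with the line of equality dashed. Most members lie on the line, while RPL12, RPL30, RPL6, RPL23A and RPL22L1, each with under 50% unique reads, lie above it.

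Reads inside a gene but outside its exons, taken here as intron reads, were tested in the same way after their own TMM scaling, over 10344 genes. Spliced, mature mRNA dominates exon reads, and intron reads come largely from unspliced transcripts. Intron reads made up 0.723% to 0.915% of the reads on members in late pregnancy and 1.42% to 1.70% in lactation, without overlap. HM lactation pool 1 did not stand apart in this share. Of the 64 members, 15 were lower in intron reads, against 29.0% of all tested genes, and 8 were higher, also against 29.0%. The median log2 change of the members' intron reads was -0.09, beside -0.01 for all genes. Without HM lactation pool 1 the counts of lower and higher members were 16 and 8. Depth limits the intron calls of some members. Lactation libraries held 2 to 13 intron reads each for RPL27 and 6 to 18 for RPL7, against 177 to 387 for RPL5.

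The members with the most intron reads were RPL26L1, RPL5, RPL8, RPL22 and RPL36. RPL5 had 241, 282 and 311 intron CPM as lowest, median and highest in late pregnancy and 242, 270 and 298 in lactation. These values overlapped almost wholly, with a log2 change of -0.04 ± 0.08 (edgeR adjusted p = 0.72), while its exon reads fell 2.91-fold. RPL8 had 201, 260 and 295 intron CPM and then 200, 225 and 246 (log2 change -0.17 ± 0.09, edgeR adjusted p = 0.104), and was called lower at -0.37 on unique reads. RPL22 went from 182, 194 and 226 to 138, 158 and 178 without overlap (log2 change -0.34 ± 0.08, edgeR adjusted p = 8.48e-04). RPL36 went from 127, 148 and 178 to 106, 123 and 169 (log2 change -0.19 ± 0.11, edgeR adjusted p = 0.124). RPL26L1 had 88.9% of its late pregnancy reads outside exons and 328 to 450 intron CPM, then 228 to 291 in lactation. Its span (chr16:4743454-4766988) overlaps ERGIC1, which has 45014 reads, and the library kit does not keep strand, so these reads cannot be given to either gene. The same holds for RPL36, which overlaps C5H19orf70, a gene with 6413 reads. In all 7 members overlap another feature: RPL8, RPL12, RPL23, RPL26L1, RPL36, RPLP1 and RPS27.

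The difference of the exon change and the intron change was tested in a single fit of both kinds of reads, with each library as its own control, over 9800 genes. Exon reads fell further than intron reads in 50 of the 64 members, against 17.5% of all tested genes, and 2 members went the other way, against 15.9%. The members' median difference was -0.86 on the log2 scale, beside -0.01 for all genes. By subunit, 33 of 40 large and 17 of 24 small members had the larger exon fall. RPL22L1 differed by -1.80 ± 0.15, RPL12 by -1.77 ± 0.16, RPL6 by -1.61 ± 0.11 and RPL5 by -1.55 ± 0.08 (edgeR adjusted p = 1.78e-17 for RPL5). On unique reads the differences of RPL12 and RPL6 were smaller, at -0.99 and -1.07, and that of RPL5 was -1.48. For RPL22L1 the exon change alone was -1.54 with unique reads, against -1.91 with all reads. RPS9, named here after its values were seen, had a difference of -2.00 ± 0.11 with all reads, in which its intron reads went from 72.6, 98.7 and 122 intron CPM to 149, 166 and 185. That intron change, 0.76 with all reads, was -0.38 and not called with unique reads (edgeR adjusted p = 0.289). In the stalk, RPLP0 differed by -1.28 ± 0.14 and RPLP2 by -0.69 ± 0.13, while RPLP1 had a difference of -0.30 ± 0.16 (edgeR adjusted p = 0.157). On unique reads 48 members were lower and 2 higher, and RPL30 lost its call at -0.17. Without HM lactation pool 1 the counts were 47 and 2.

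Both members with a positive difference were L-suffixed paralogues. RPS27L differed by 1.20 ± 0.12 (edgeR adjusted p = 6.38e-10), with intron reads of 44.0 to 61.0 intron CPM in late pregnancy and 16.1 to 43.5 in lactation beside its rise in exon reads. RPL7L1 differed by 0.54 ± 0.19 (edgeR adjusted p = 0.024), a call that was lost without HM lactation pool 2 (0.47), LM lactation pool 2 (0.49) or MM lactation pool 1 (0.38). Among the 12 members not called, RPS21, RPS25 and RPS29, singled out after their values were seen, had values above 0, of 0.14, 0.11 and 0.12. Across the members, exon and intron changes did not run together (Spearman's rho = -0.03 over 64 members that share libraries). Low intron counts in some members add noise to this rho, so it cannot show that the changes are unrelated.

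**Figure D5:**
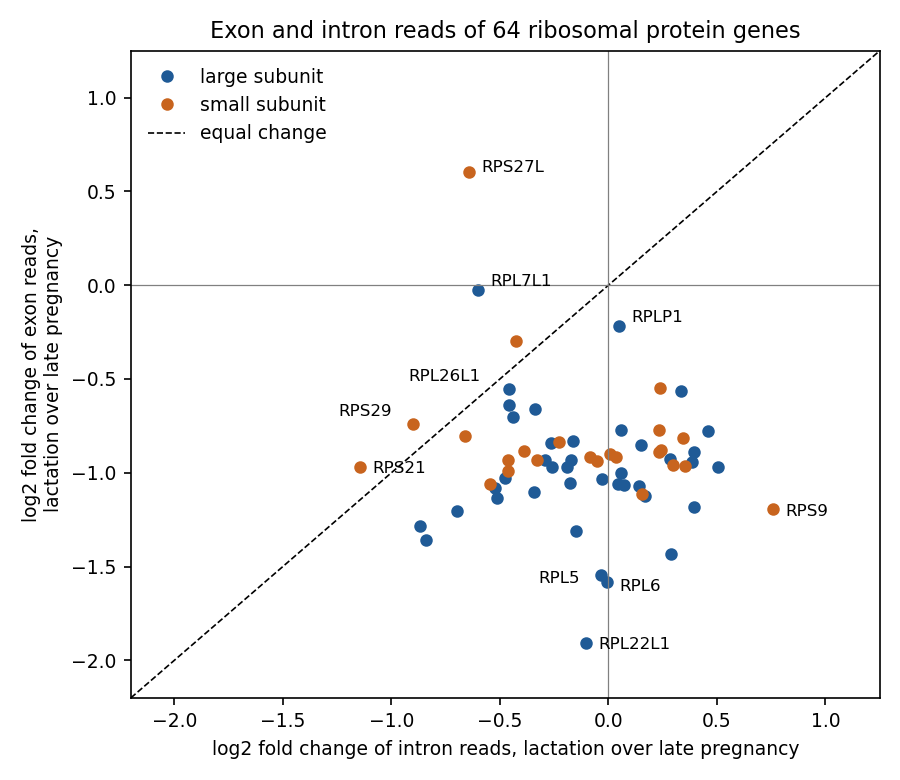
The log2 fold change of intron reads (x axis) against that of exon reads (y axis), lactation over late pregnancy, for 64 members coloured by subunit, with the line of equal change dashed. Most members lie below the line, with exon changes near -1 and intron changes spread around 0, and RPS27L and RPL7L1 lie furthest above it.

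Other mRNAs known to begin with a TOP tract were taken as a list of 16, of which 14 were found and tested. Its EIF and EEF genes, such as EIF3E and EEF1B2, also belong to the initiation and elongation factors above, so these sets are not independent. All 14 were lower in lactation in exon reads, with a median of -0.94, and by limma 13 were lower and 1, TPT1, was higher. Among them EIF3E, a subunit of an initiation factor, had a log2 change of -1.33 ± 0.06, NPM1, a nucleolar chaperone, -1.35 ± 0.09, PABPC1, the poly(A)-binding protein, -1.04 ± 0.06, and EEF1B2, an exchange factor in elongation, -1.13 ± 0.08. In 12 of the 14 the exon change lay below the intron change, against 17.5% of all tested genes, with a median difference of -1.17. Intron reads of this list had a median change of 0.19, with 7 genes called higher and 2 lower. Part of the difference is thus a rise of intron reads, as in TPT1, at -0.28 in exon and 1.33 in intron reads. EIF3L and VIM were not called in that difference, at -0.10 and -0.01. FAU, which encodes the small subunit protein RPS30 as a fusion, had a log2 change of -0.82 ± 0.06. The list is small and was chosen with results of these data known.

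Genes for ribosome production moved less. Of 14, 7 fell and 2 rose, their median change being -0.16, and all 14 were lower by library size alone and 10 lower and 0 higher by limma. POLR1A, the largest subunit of RNA polymerase I, had a log2 change of -0.48 ± 0.06 and FBL, the rRNA methylase fibrillarin, -0.43 ± 0.06. NCL, nucleolin, was not called at -0.08 ± 0.05, and GNL3 rose by 0.20 ± 0.07. Of 8 regulators, 5 were higher and 2 lower under TMM, while all 8 were lower by library size alone. MTOR rose by 0.60 ± 0.06, its partner RPTOR by 1.12 ± 0.07, LARP1 by 0.60 ± 0.06 and LARP4 by 0.78 ± 0.08 on the log2 scale. EIF4EBP2 rose by 1.00 ± 0.09 and its relative EIF4EBP1 fell by 1.45 ± 0.11. MYC, a transcription factor that drives ribosome production, fell from 52.5 ± 3.50 to 14.9 ± 2.36 CPM (log2 change -1.80 ± 0.08), and RPS6KB1 was not called at 0.01 ± 0.06.

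Markers of the cells in the biopsies moved between the states as well, and their part in the members' change was not tested. All 5 markers of dividing cells were lower, with summed levels between 65.2 and 145.9 CPM before birth and between 6.37 and 20.1 CPM in lactation. The 5 lymphocyte markers tested of 8 were lower, with sums of 62.5 to 89.3 and 23.2 to 32.5 CPM, and the B cell genes MS4A1 and CD79B were near 0 in both states. Of the 8 luminal markers 7 were higher, while by library size alone 5 were lower and 3 higher, and the milk genes CSN2, CSN3 and LALBA held nearly all of their sum. Fibroblast markers summed to 353 to 627 CPM and then 225 to 372, with 3 of 4 lower, and the 3 endothelial markers were all lower, at 140 to 192 and 85.8 to 124 CPM. Macrophage markers (2 of 4 lower, 51.4 to 64.8 and 37.7 to 45.7 CPM) and myoepithelial markers (2 of 5 lower and 1 higher, 527 to 566 and 415 to 599 CPM) moved less. Of 3 adipocyte markers tested edgeR called 0 (0 at an unadjusted p under 0.05, 0 by DESeq2 and 1 by limma), and all 5 summed to 221 to 427 and 301 to 392 CPM. KRT8 and ACTA2, of luminal and myoepithelial cells, were present in both states.

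Dam nutrition left no call on any member. Over the 9 late pregnancy libraries the test of 3 dam groups called 0 of 64 members, and 0.0% of all tested genes, and 0 members had an unadjusted p under 0.05 (571 genes in all). Members took 8.57% to 9.64% of exon reads in HM, 8.85% to 10.0% in MM and 9.19% to 10.2% in LM libraries, and the groups overlapped. The interaction of dam nutrition with state likewise called 0 members and 0.0% of all tested genes. Here RPL37A had the smallest p of the members and was the sole member under 0.05 before adjustment (edgeR adjusted p = 0.742), among 876 genes with an unadjusted p under 0.05. In lactation the shares were 1.10% to 1.41% in HM, 1.23% to 1.48% in MM and 1.21% to 1.32% in LM libraries.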

How the data were processed

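The authors sequenced pooled RNA as paired reads (TruSeq kit, Illumina Hi-Seq) and mapped them in CLC Genomics Workbench to the sheep genome, given as Oar 3.1 in the submitters' processing notes and as a later version in the methods. How reads fitting several places were assigned is not given in the sources used here. The deposited counts per gene are reads on exons, on exon junctions and on whole genes, in all and unique, and were not normalized. The deposited RPKM and the authors' quantile-normalized RPKM (used as a deposited score in the limma alternative, as log2(value + 1)) come from the same table, as do gene positions, exon numbers and lengths. Deposited fold changes and p-values of the authors' own test were not used.

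Counts were filtered with filterByExpr and tested with edgeR 4.0.16 (R 4.3.3). Intron reads are gene reads less exon reads. Alternatives were limma 3.58.1, DESeq2 1.42.0, other scalings and filters, unique or junction reads, single lanes, a dam nutrition covariate, a replicate block and leaving out libraries, and the scripts were tested on simulated data. Lanes were read from the column headers, although the sample descriptions say that each library ran on different lanes that were combined. The lane splits may therefore not separate sequencing lanes. Named genes are the stalk proteins, paralogue pairs, RPS27A, the 5 members at each end of the tests, the 5 with the highest RPKM, fewest unique reads or most intron reads, and any that failed the filter or were called for nutrition. A few genes are not reported by name here. The members and lists were chosen with earlier results of these data known. Reads carry no molecular identifiers, so precision is given by the spread between libraries.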

Additional observations from a re-analysis of the deposited data

Results flagged for a closer look

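With 68 groups of library values screened for a lone library by Dixon's criterion, which marks about 1 in 20 groups by chance, 2 values stood apart. RPL22L1 reached 194 CPM in HM late pregnancy pool 3, while the other 8 late pregnancy libraries lay between 131 and 155 CPM. RPL3L reached 0.548 CPM in HM late pregnancy pool 2, while the others lay between 0.0 and 0.190 CPM, a gene of so few reads that single reads set its values.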

How the results depend on the processing

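The count of 61 members lower in lactation stayed between 61 and 62 when each library was left out in turn, with a median log2 change of -0.98 to -0.91. The median was -2.84 by library size alone, where 0 members were higher, -1.08 by upper-quartile scaling and -0.76 by limma. RPS27L turned to -1.30 by library size alone and RPS10 to 0.034 by limma. Relative to the summed members, unique reads turned RPL12 to 0.24 and RPL30 to 0.26. Pool numbers within dam groups were tried as a replicate block: in the first comparison RPLP1 lost its call (-0.20) and RPS25 gained one (-0.41), so the counts were again 61 lower and 1 higher, and the block gave 11 members higher and 12 lower relative to the group. Deviations of the genes from their state means correlated at -0.05 to 0.12 between same-numbered libraries of a dam group. Between all other pairs of a lactation and a late pregnancy library they correlated at -0.17 to 0.13. No source used here says that same-numbered libraries hold the same ewes, so the block rests on a shared number. On unique reads the member share had medians of 8.05% in late pregnancy and 1.05% in lactation. On all reads, without the milk protein genes, the medians were 11.3% and 4.997%. The ratio of large to small subunit reads had medians of 1.49 and 1.47 on unique reads. With each library left out, 1 to 2 members had a positive exon minus intron difference that was called, and 47 to 53 a negative one. Junction reads, members with at least 90% unique reads, and leaving out libraries from the exon and intron fit were added after the data were seen. Members with few reads, such as RPL3L and RPS25, are limited by depth, as are the intron counts of some other members.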
